A study of Mus musculus with 27 samples.

Results

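The response of Raptor-deficient CD8+ T cells to stimulation through the antigen receptor was measured by RNA sequencing of mouse cells on the C57BL/6 (B6) background. The stimulated group comprised 3 libraries of CD8+ T cells from mice of genotype B6-CD4-cre-Rptorfl/fl kept for 48 h on plates coated with anti-CD3 and anti-CD28 (10 µg/ml). The resting group comprised 3 libraries of CD8+ T cells of the same genotype kept for 48 h with the survival cytokine IL-7 at 5 ng/ml and no antibody. Stimulated cultures had no added IL-7, so each difference between the groups includes its absence. Both groups carry a CD4-driven Cre and floxed Rptor, so Rptor is deleted from the stage of T cell development at which the CD4 promoter is active, and neither group shows what stimulation does with Raptor present. That contrast came from 3 stimulated and 3 resting libraries of wild-type (WT, B6) CD8+ cells, and the same contrast in the other lineage came from 3 stimulated and 3 resting libraries of Raptor KO CD4+ cells. Cells were taken from lymph nodes and spleen pooled, enriched by magnetic negative sorting and sorted as live cells, negative for the dye 7-AAD and for binding of MFG-E8. The comparison used the 3 stimulated and the 3 resting Raptor KO CD8+ libraries, 6 of the 27 in the study, and covered 10493 genes with enough counts, of 26802 in the table.

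Raptor is the scaffold subunit of the kinase complex mTORC1. In T cells mTORC1 is activated by receptor signals, amino acids and cytokines, and it promotes protein synthesis, ribosome production, glycolysis, lipid synthesis and translation of the transcription factor ATF4. When a naive CD8+ T cell meets antigen together with CD28 signals it leaves quiescence, grows, enters the cell cycle, acquires cytokine and cytotoxic genes and loses the receptors that direct it through lymph nodes.

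Library totals ran from 11566794 to 14964503 counts in stimulated and from 11131572 to 13359250 counts in resting Raptor KO CD8+ libraries. Rn45s, the row for the precursor of the ribosomal RNAs, held 85.1% to 87.3% of counts in stimulated and 82.9% to 84.0% in resting libraries and was left out. Counts in this row cannot tell the precursor from the mature ribosomal RNAs cut from it. Protein-coding genes held 487573, 803782 and 1064861 counts in the stimulated libraries and 595387, 516527 and 410808 in the resting ones, a median of 27 counts per library for those tested. The libraries were uneven in composition: resting library 3 had the lowest protein-coding share of the non-Rn45s counts, 18.7%, with 38.3% of them from small nucleolar RNAs, and stimulated library 1 had 31.8%, against 47.2% and 47.8% in the other 2 stimulated libraries. Both libraries numbered 1 contained Xist (1300 counts stimulated, 1739 resting), which had at most 5 counts in each of the others, so sex differed among the libraries of each group in the same way. In all Raptor KO groups used here the library numbered 1 had Xist and no count of the Y-linked Ddx3y, while all WT libraries had Ddx3y, so number 1 differs in sex between Raptor KO and WT. The spread within the Raptor KO groups therefore includes at least 2 animals.

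Stimulation changed 55.6% of the genes tested. A level is a CPM value, that is, the count after each library was brought to an equal effective total without Rn45s, and changes as log2 fold change, stimulated over resting, ± SE. An adjusted p is from edgeR's quasi-likelihood test with Benjamini-Hochberg adjustment over all 10493 genes, and a gene is said to rise or fall where it is under 0.05. In all, 3099 genes rose (29.5%) and 2733 fell (26%), and the median over all genes was 0.03. The counts of each gene list below are to be read against these shares. They describe the members tested and not every member listed. A member with few or no counts at rest entered the test only where another group had enough counts. The 3 stimulated libraries lay above all 3 resting ones for 31.2% of the genes tested and below all of them for 27%. By edgeR's estimate, 2139 of the genes that rose did so by more than 2-fold and 136 by more than 64-fold. Of those that fell, 1850 did so by more than 2-fold and 32 by more than 64-fold by the same estimate. Among the genes tested, 153 had a bound because 1 group had no counts. Their estimates were not set to that bound here, so the numbers over 64-fold may include genes whose bound is lower. With Rn45s kept in the library totals, the median of all genes shifted by 0.30, and 2786 genes rose and 1232 fell, so that 69.3% of the calls were increases, against 53.1% with it left out. Of the 204 genes whose change is given, 20 lost the call with Rn45s kept in the totals: Rptor, Cd3e, Lck, Cd27, Ctsw, Smc4, Pdcd4, Rps27, Mtor, Akt1, Rictor, Slc38a9, Sars, Atf4, Ppp1r15a, H6pd, Idh1, Psmb10, Herpud1 and H2-K1. Where one group held 1 to 3 counts in all, the ratio of summed counts per effective depth, stimulated over resting, is given with its exact 95% interval, which covers counting error only. The plot of levels by library shows 20 of the genes described below.

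**Figure D1:**
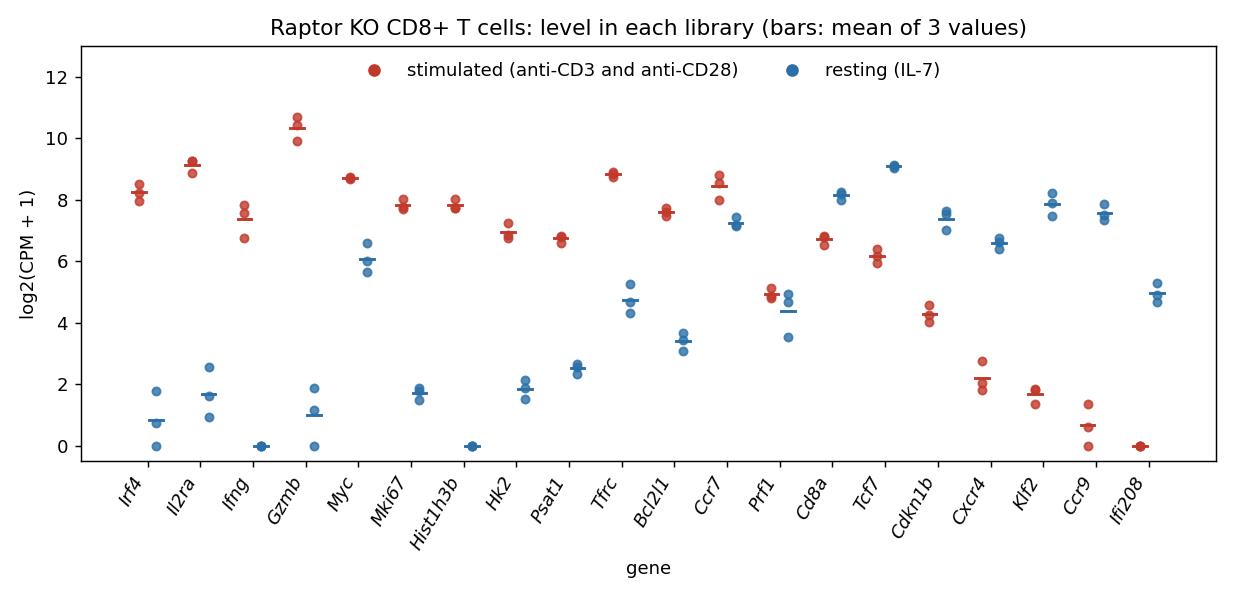
Level of 20 genes in each Raptor KO CD8+ library, as log2(CPM + 1), with stimulated libraries (red) left of resting libraries (blue) for each gene and a bar at the mean of the 3 values. The groups do not overlap for any of the genes shown except Prf1, and Ifng and Hist1h3b have no counts in the resting libraries.

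The targeted gene and the lineage genes were examined first. Rptor (ENSMUSG00000025583, at 119602905 to 119899576 on chromosome 11 of GRCm38) measured 22.6, 17.2 and 19.6 CPM in stimulated cells, against 39.7, 41.9 and 34.8 CPM in resting cells, and fell (log2 fold change -0.99 ± 0.21, adjusted p = 8.10e-05). A count over the whole gene cannot show a deletion of some of its exons, so the genotype rests on the labels. Rptor averaged 19.8 ± 2.68 CPM in stimulated Raptor KO cells and 23.5 ± 5.27 CPM in stimulated WT cells, and 38.8 ± 3.65 CPM in resting Raptor KO cells and 45.3 ± 7.49 CPM in resting WT cells (SD, n = 3 each). The Raptor KO means were lower by less than 1 SD of the WT libraries, and the genotypes were not tested against each other. Cd8a, the CD8 alpha chain, measured 109.7, 112 and 91.7 CPM in stimulated cells, against 293, 304 and 250.5 CPM in resting cells (log2 fold change -1.44 ± 0.16, adjusted p = 7.32e-10). Cd8b1, the beta chain, measured 56.1, 67.4 and 44.7 CPM in stimulated cells, against 252, 289 and 138 CPM in resting cells (log2 fold change -2.03 ± 0.19, adjusted p = 9.39e-11). Both CD8 chains therefore stayed among the well-measured genes in all 6 libraries but were lower after stimulation, with no overlap between the groups. Cd4 was at or below 5.49 CPM in each of the 6 libraries.

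Markers of other cell types summed to less than those of CD8+ T cells. The 7 CD8+ T cell markers summed to 460 to 518 CPM in stimulated and 975 to 1307 CPM in resting libraries, and all 7 fell. In bulk RNA, fewer cells of a type and less of its RNA per cell cannot be told apart. Of 10 B cell markers, Ighm was the highest, and the list summed to 55.3 to 88.3 CPM in stimulated and 111 to 141 CPM in resting libraries. Of 12 myeloid markers, which summed to 63.8 to 69.0 CPM stimulated and 29.4 to 61.6 CPM resting, Itgam, Cd14 and Clec9a had no counts in stimulated libraries and Ctss, a cathepsin that T cells also express, was the highest. The 4 CD4+ T cell markers summed to 4.18 to 10.0 CPM stimulated and 4.73 to 8.54 CPM resting. The 7 markers of NK and gamma-delta T cells summed to 6.27 to 12.55 CPM stimulated and 16.9 to 41.5 CPM resting. The part of these cells in the results was not tested.

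Transcription factors of the early T cell response rose together while the receptor complex itself did not. Of 24 activation factors tested, 20 rose and 0 fell (median log2 fold change 2.94, or 2.92 with members at 0 in one group set to their bound). Irf4, the factor whose level follows receptor signal strength, measured 299, 363 and 249 CPM in stimulated cells, against 2.44, 0.676 and 0 CPM in resting cells (log2 fold change 7.95 ± 0.75, adjusted p = 2.94e-08). Nr4a1, an orphan nuclear receptor induced by calcium and receptor signals, measured 203, 207 and 241 CPM in stimulated cells, against 1.22, 0.676 and 0.891 CPM in resting cells (log2 fold change 7.76 ± 0.36, adjusted p = 8.58e-18). Both were almost absent at rest and among the well-expressed genes in each stimulated library. Egr2, an early growth response factor that also restrains effector genes, measured 24.3, 33.98 and 37.6 CPM in stimulated cells, against 2.44, 2.03 and 0.891 CPM in resting cells (log2 fold change 4.08 ± 0.37, adjusted p = 1.84e-12). The largest rise of the list was that of Irf8 (log2 fold change 9.02 ± 0.67, count ratio 614 with counting interval 169.7 to 5073), followed by Nr4a3 (log2 fold change 8.23 ± 0.59). Junb, an AP-1 subunit, rose (log2 fold change 1.34 ± 0.21), while Jun (log2 fold change 0.43 ± 0.26, adjusted p = 0.168) and Nfatc1 (log2 fold change 0.23 ± 0.15, adjusted p = 0.203) did not pass the test.

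The receptor complex and its proximal signalling molecules were mostly lower. Of 29 members tested, 7 rose and 17 fell (median log2 fold change -0.62). With Rn45s kept in the totals, 8 of them fell. Cd3e, a signalling chain of the receptor complex, measured 66.1, 67.4 and 81.2 CPM in stimulated cells, against 166, 168 and 139 CPM in resting cells (log2 fold change -1.13 ± 0.14, adjusted p = 3.12e-09), and Lck, the kinase that phosphorylates it, measured 113, 113 and 133 CPM in stimulated cells, against 188, 184 and 195 CPM in resting cells (log2 fold change -0.66 ± 0.12, adjusted p = 9.66e-06). Txk, Grap2 and Prkcq, a kinase, an adaptor and protein kinase C theta, fell by more, with log2 fold changes of -2.71, -2.33 and -2.30. Against that direction, the kinase Zap70 measured 61.1, 59.1 and 71.4 CPM in stimulated cells, against 41.5, 44.6 and 33.9 CPM in resting cells (log2 fold change 0.67 ± 0.17, adjusted p = 7.69e-04). Cd5, an inhibitory receptor whose level follows receptor signalling, measured 79.5, 87.3 and 90.6 CPM in stimulated cells, against 23.2, 25.0 and 29.4 CPM in resting cells (log2 fold change 1.74 ± 0.18, adjusted p = 6.39e-11). Malt1, the protease that links the receptor to NF-kB, measured 188, 159 and 227 CPM in stimulated cells, against 62.8, 71.6 and 59.7 CPM in resting cells (log2 fold change 1.56 ± 0.17, adjusted p = 1.68e-10).

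Receptors that mark an activated T cell appeared at the level of RNA. Of 20 activation and costimulatory receptors tested, 13 rose and 2 fell (median log2 fold change 2.48, or 2.23 with members at 0 in one group set to their bound). The list held 22, and the others had too few counts for the test. Il2ra, the high-affinity chain of the IL-2 receptor, measured 613, 609 and 463 CPM in stimulated cells, against 4.88, 2.03 and 0.891 CPM in resting cells (log2 fold change 7.62 ± 0.43, adjusted p = 6.17e-12). Tnfrsf9, the costimulatory receptor 4-1BB, measured 480.5, 518 and 337 CPM in stimulated cells, against 2.44, 1.35 and 0 CPM in resting cells (log2 fold change 8.24 ± 0.51, adjusted p = 4.18e-11). Every stimulated library was far above every resting one for both. Cd69, which retains cells in lymphoid tissue, measured 202, 186 and 235 CPM in stimulated cells, against 22.0, 23.6 and 17.8 CPM in resting cells (log2 fold change 3.28 ± 0.24, adjusted p = 4.81e-12). The costimulatory receptor Cd27 fell (log2 fold change -1.17 ± 0.19).

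Inhibitory receptors moved both ways. Of 13 tested, 8 rose and 3 fell (median log2 fold change 2.12). The list held 16, and the others had too few counts for the test. Lag3 measured 89.6, 89.9 and 100.4 CPM in stimulated cells, against 1.22, 0.676 and 1.78 CPM in resting cells (log2 fold change 6.24 ± 0.46, adjusted p = 1.10e-11). Ctla4 measured 28.5, 35.5 and 17.2 CPM in stimulated cells, against 2.44, 1.35 and 3.57 CPM in resting cells (log2 fold change 3.45 ± 0.53, adjusted p = 1.06e-05) and Pdcd1, which encodes PD-1, measured 20.1, 10.46 and 25.1 CPM in stimulated cells, against 1.22, 0.676 and 0 CPM in resting cells (log2 fold change 4.61 ± 0.60, adjusted p = 1.84e-08, count ratio 27.0 with counting interval 8.99 to 133). These 3 receptors restrain T cells after activation. Lair1, a collagen receptor, and Nt5e, the ectonucleotidase CD73, fell (log2 fold changes -4.52 ± 0.79, count ratio 0.0375 with counting interval 0.00439 to 0.145 and -3.32 ± 0.42).

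Cytokine receptors and their signalling genes moved both ways. Of 27 tested, 15 rose and 7 fell (median log2 fold change 0.68). Cish, a feedback inhibitor induced through STAT5, measured 145, 181 and 102 CPM in stimulated cells, against 6.10, 5.41 and 0.891 CPM in resting cells (log2 fold change 4.98 ± 0.48, adjusted p = 4.15e-08), and Stat5a, Socs2 and the IL-12 receptor chains Il12rb1 and Il12rb2 rose (log2 fold changes 3.30 ± 0.17, 4.88 ± 0.70, count ratio 32.98 with counting interval 8.86 to 277, 4.73 ± 0.30 and 5.51 ± 0.71). Il6ra, the IL-6 receptor, measured 2.51, 3.14 and 4.31 CPM in stimulated cells, against 101, 93.2 and 94.5 CPM in resting cells (log2 fold change -4.76 ± 0.23, adjusted p = 3.16e-20). Ifngr1, a chain of the interferon gamma receptor, measured 16.7, 18.8 and 14.1 CPM in stimulated cells, against 115, 111 and 128 CPM in resting cells (log2 fold change -2.84 ± 0.35, adjusted p = 9.70e-07). Socs3, another feedback inhibitor, did not pass the test (log2 fold change -0.98 ± 0.43, adjusted p = 0.0635).

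The cells expressed effector cytokines without Raptor. Of 18 cytokines and TNF family ligands tested, 14 rose and 2 fell (median log2 fold change 4.23, or 4.05 with members at 0 in one group set to their bound). The list held 21, and the others had too few counts for the test. Ifng, the gene of interferon gamma, measured 188, 224 and 106 CPM in stimulated cells, against 0, 0 and 0 CPM in resting cells, which is at least 231-fold higher with 3 counts over the resting group taken as the floor (adjusted p = 1.12e-07). Csf2, which encodes GM-CSF, measured 60.3, 98.3 and 32.5 CPM in stimulated cells, against 0, 0 and 0 CPM in resting cells, at least 85.7-fold higher (adjusted p = 1.34e-07). Neither cytokine had a count in a resting library, so both entered the test through stimulated groups and could not have been called lower. Tnf measured 106, 81.5 and 107 CPM in stimulated cells, against 15.3, 12.8 and 9.80 CPM in resting cells (log2 fold change 2.92 ± 0.38, adjusted p = 1.48e-06), and Lta, its relative lymphotoxin alpha, measured 124, 156 and 119 CPM in stimulated cells, against 2.44, 4.05 and 2.67 CPM in resting cells (log2 fold change 5.41 ± 0.34, adjusted p = 1.51e-13). Il2 measured 5.02, 13.1 and 38.03 CPM in stimulated cells, against 0, 2.03 and 0.891 CPM in resting cells (log2 fold change 4.39 ± 1.62, adjusted p = 0.028), and stimulated library 3 was the highest. Without stimulated Raptor KO CD8+ library 3 or resting Raptor KO CD8+ library 1, 2 or 3, Il2 did not pass the test (adjusted p = 0.0553 to 0.186). It also lost the call with no filter on low counts (adjusted p = 0.0659), with limma-voom (adjusted p = 0.164) and without both Raptor KO CD8+ libraries numbered 1 (adjusted p = 0.0657). Ltb and Il16, which resting T cells express, fell (log2 fold changes -3.83 ± 0.35 and -3.51 ± 0.26).

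All 5 chemokines tested changed, against 55.6% of all genes tested. The list held 10, and the others had too few counts for the test. Ccl3, Ccl4, Xcl1 and Ccl9 had few counts at rest and entered the test through stimulated groups. The count therefore describes the members tested and not every member listed. Ccl3 measured 172, 193 and 404 CPM in stimulated cells, against 0, 0 and 0.891 CPM in resting cells (log2 fold change 9.76 ± 1.18, adjusted p = 4.91e-06, count ratio 1204 with counting interval 216 to 47573), Ccl4 measured 125, 137 and 258 CPM in stimulated cells, against 1.22, 0.676 and 0.891 CPM in resting cells (log2 fold change 7.45 ± 0.83, adjusted p = 7.15e-07) and Xcl1, which attracts cross-presenting dendritic cells, measured 42.7, 44.4 and 184 CPM in stimulated cells, against 0, 2.70 and 0.891 CPM in resting cells (log2 fold change 6.24 ± 0.92, adjusted p = 1.94e-05). In all 3, stimulated library 3 was the highest. Ccl9 rose (log2 fold change 5.81 ± 0.78, count ratio 66.3 with counting interval 18.1 to 552). Ccl5, a chemokine of memory cells, measured 1.67, 3.66 and 1.18 CPM in stimulated cells, against 29.3, 45.9 and 17.8 CPM in resting cells (log2 fold change -3.84 ± 0.49, adjusted p = 3.62e-08) and was the only one of the 5 to fall.

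Cytotoxic genes moved unevenly. Of 14 members tested, 7 rose and 2 fell (median log2 fold change 0.53), and 6 other granzymes had too few counts for the test. Gzmb, the granzyme B protease, measured 1390.4, 1639 and 966 CPM in stimulated cells, against 1.22, 0 and 2.67 CPM in resting cells (log2 fold change 10.05 ± 0.58, adjusted p = 2.05e-11). Prf1, the pore-forming protein that delivers it, measured 28.5, 27.2 and 33.7 CPM in stimulated cells, against 24.4, 29.7 and 10.7 CPM in resting cells and did not pass the test (log2 fold change 0.43 ± 0.26, adjusted p = 0.164). So granzyme B was high in every stimulated library, while for perforin the groups overlapped. Serpinb9 and Serpinb6b, inhibitors of granule proteases, rose (log2 fold changes 6.06 ± 0.25 and 7.02 ± 0.43). Nkg7, a granule membrane protein, measured 117, 118 and 167 CPM in stimulated cells, against 44.5, 53.4 and 40.1 CPM in resting cells (log2 fold change 1.54 ± 0.25, adjusted p = 8.85e-06). Ctsw, a cathepsin of cytotoxic cells, fell (log2 fold change -0.73 ± 0.21).

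Effector and memory transcription factors showed no common direction, with 9 higher and 6 lower of 22 tested (median log2 fold change -0.18). Over all genes tested, 29.5% rose and 26% fell. Tbx21, the gene of T-bet, measured 46.04, 53.3 and 38.4 CPM in stimulated cells, against 11.0, 15.5 and 7.13 CPM in resting cells (log2 fold change 1.98 ± 0.28, adjusted p = 1.49e-07). Its relative Eomes measured 33.5, 53.8 and 23.9 CPM in stimulated cells, against 3.05, 5.41 and 3.57 CPM in resting cells (log2 fold change 3.18 ± 0.42, adjusted p = 3.97e-08). Both T-box factors of cytotoxic cells rose, with no overlap of the libraries. Bcl6 and Zbtb20, repressors linked to memory, fell (log2 fold changes -4.86 ± 0.87, count ratio 0.0258 with counting interval 0.000633 to 0.156 and -2.65 ± 0.20). Prdm1, which encodes Blimp-1, did not pass the test (log2 fold change -2.38 ± 1.12, adjusted p = 0.0783).

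Genes of naive and quiescent T cells fell, with 2 exceptions. Of 30 listed and tested, 2 rose and 23 fell (median log2 fold change -1.52). Klf2, the factor that maintains quiescence and the receptors for leaving lymph nodes, measured 2.51, 2.61 and 1.57 CPM in stimulated cells, against 174, 296 and 237 CPM in resting cells (log2 fold change -6.75 ± 0.37, adjusted p = 2.85e-13). Its target S1pr1, the receptor for exit from lymph nodes, measured 10.9, 11.0 and 3.92 CPM in stimulated cells, against 356, 351 and 327 CPM in resting cells (log2 fold change -5.40 ± 0.43, adjusted p = 2.81e-09). Ccr9, the gut-homing chemokine receptor of recent thymic emigrants and naive CD8+ cells, measured 0, 0.523 and 1.57 CPM in stimulated cells, against 180.0, 160.2 and 232 CPM in resting cells (log2 fold change -7.66 ± 0.42, adjusted p = 3.21e-14). Each of the 3 was far lower in every stimulated library than in any resting one. Tcf7, the gene of TCF-1, measured 70.3, 60.6 and 82.3 CPM in stimulated cells, against 556, 549 and 524 CPM in resting cells (log2 fold change -2.93 ± 0.14, adjusted p = 2.08e-20), and Il7r, the receptor for the cytokine of the resting cultures, measured 20.9, 23.0 and 11.8 CPM in stimulated cells, against 138, 179.7 and 106 CPM in resting cells (log2 fold change -2.97 ± 0.41, adjusted p = 4.96e-06).

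The exceptions were Ccr7 and Dapl1. Ccr7, which directs naive cells into lymph nodes, measured 372, 444 and 252 CPM in stimulated cells, against 139, 172 and 144 CPM in resting cells (log2 fold change 1.23 ± 0.16, adjusted p = 2.39e-08). Dapl1, a gene of naive CD8+ cells, measured 15.1, 9.93 and 8.63 CPM in stimulated cells, against 1.83, 3.38 and 0.891 CPM in resting cells (log2 fold change 2.30 ± 0.47, adjusted p = 6.72e-05). So Ccr7 rose while S1pr1 fell, with no overlap of the libraries for either.

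Of 17 other homing genes tested, 6 rose and 8 fell (median log2 fold change -0.97). Cxcr4 measured 2.51, 5.75 and 3.14 CPM in stimulated cells, against 83.6, 98.0 and 108 CPM in resting cells (log2 fold change -4.60 ± 0.38, adjusted p = 9.95e-11) and Cxcr3, a receptor of effector and memory cells, measured 0, 0 and 3.14 CPM in stimulated cells, against 17.7, 18.2 and 13.4 CPM in resting cells (log2 fold change -3.54 ± 0.57, adjusted p = 2.03e-06). Ccr8 measured 56.1, 59.1 and 36.5 CPM in stimulated cells, against 0, 0 and 0 CPM in resting cells, at least 68.2-fold higher (adjusted p = 1.94e-05), and Ccr4 measured 55.2, 83.1 and 32.5 CPM in stimulated cells, against 1.83, 0 and 0.891 CPM in resting cells (log2 fold change 5.81 ± 0.65, adjusted p = 1.70e-07). The receptors that rose, Ccr4 and Ccr8, are best known from helper and regulatory CD4+ cells. The integrin chains Itgal, Itgb1, Itgb2 and Itgav rose (log2 fold changes 1.42 ± 0.14, 2.30 ± 0.38, 1.20 ± 0.16 and 2.12 ± 0.25), and Itga4 and Itgb7, which pair in gut homing, fell (log2 fold changes -2.30 ± 0.20 and -2.496 ± 0.18).

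Cell cycle genes rose almost without exception. Of 43 replication genes tested, 42 rose and 0 fell (median log2 fold change 2.36). Of 36 G2 and M phase genes, 35 rose and 1 fell (median log2 fold change 5.51, or 4.94 with members at 0 in one group set to their bound). Of 54 histone genes of the replication-dependent clusters, 50 rose and 0 fell (median log2 fold change 4.22, or 4.14 with members at 0 in one group set to their bound). Many of these had few or no counts at rest and entered the test through the stimulated groups, so their counts describe the members tested and not every member listed. Histone genes are near-identical copies, and how the counting shared their reads is not given in the sources used here.

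Promoter windows of 4 of these genes are shown because the cell cycle genes rose together and elements near the start are known for some of them. The 4 were picked by list order among tested members whose window holds the motif searched, so they do not stand for every member. E2F sites serve genes of DNA replication, and the CHR element serves genes of the G2 and M phases through the DREAM and MMB complexes. The windows are the RefSeq promoter sequences of build GRCm38.p6, 250 bases before to 50 after a gene's start, on the strand of the gene, with the motif in capitals. They are Mcm5 (chr8:75109259-75109558, plus strand) and Cdc6 (chr11:98907901-98908200, plus strand) with an E2F site, and Mki67 (chr7:135716330-135716629, minus strand) and Cdk1 (chr10:69352863-69353162, minus strand) with CHR elements.
Mcm5: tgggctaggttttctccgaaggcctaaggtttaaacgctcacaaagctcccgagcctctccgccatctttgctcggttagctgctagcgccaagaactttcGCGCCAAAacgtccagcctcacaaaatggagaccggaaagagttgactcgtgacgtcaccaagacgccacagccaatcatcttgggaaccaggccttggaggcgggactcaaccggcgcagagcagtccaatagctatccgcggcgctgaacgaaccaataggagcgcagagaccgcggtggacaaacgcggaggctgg
Cdc6: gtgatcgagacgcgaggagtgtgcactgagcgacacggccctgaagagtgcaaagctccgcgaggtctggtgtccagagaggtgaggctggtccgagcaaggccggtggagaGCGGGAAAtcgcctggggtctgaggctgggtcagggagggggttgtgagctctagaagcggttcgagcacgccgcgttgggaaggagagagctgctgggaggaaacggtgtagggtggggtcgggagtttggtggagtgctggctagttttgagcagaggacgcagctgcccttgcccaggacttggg
Mki67: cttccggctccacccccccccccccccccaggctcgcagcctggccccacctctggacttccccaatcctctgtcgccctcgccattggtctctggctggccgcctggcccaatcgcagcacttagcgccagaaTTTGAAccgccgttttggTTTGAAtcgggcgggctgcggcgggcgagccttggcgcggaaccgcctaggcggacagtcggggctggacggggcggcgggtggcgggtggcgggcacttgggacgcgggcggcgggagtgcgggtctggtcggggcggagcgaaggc
Cdk1: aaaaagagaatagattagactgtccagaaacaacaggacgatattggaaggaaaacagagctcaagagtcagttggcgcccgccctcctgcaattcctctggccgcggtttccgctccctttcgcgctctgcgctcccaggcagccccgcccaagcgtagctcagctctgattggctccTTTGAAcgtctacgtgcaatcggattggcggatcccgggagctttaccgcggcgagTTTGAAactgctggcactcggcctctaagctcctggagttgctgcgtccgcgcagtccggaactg
The E2F match lay at position -149 in Mcm5 and -138 in Cdc6, counted from the start, and the first of 2 CHR matches at -116 in Mki67 and -71 in Cdk1.

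The motifs were searched on both strands as TTTCCCGC or TTTGGCGC for E2F and TTTGAA for CHR, and neither motif contains the other. Of the replication genes, 35 had a window and 11 of them (31.4%) held an E2F site, against 308 of 7778 tested genes with a window (3.96%) and 1.8% of all 27025 genes in the promoter table. Of the G2 and M phase genes, 29 had a window and 23 (79.3%) held a CHR element, against 14.2% of the tested genes and 20.2% of all in the table. Among all genes that rose, 5.95% held an E2F site and 16% a CHR element, and among all that fell 2.68% and 12.6%. A match is a string of letters and not a measured binding site.

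**Figure D2:**
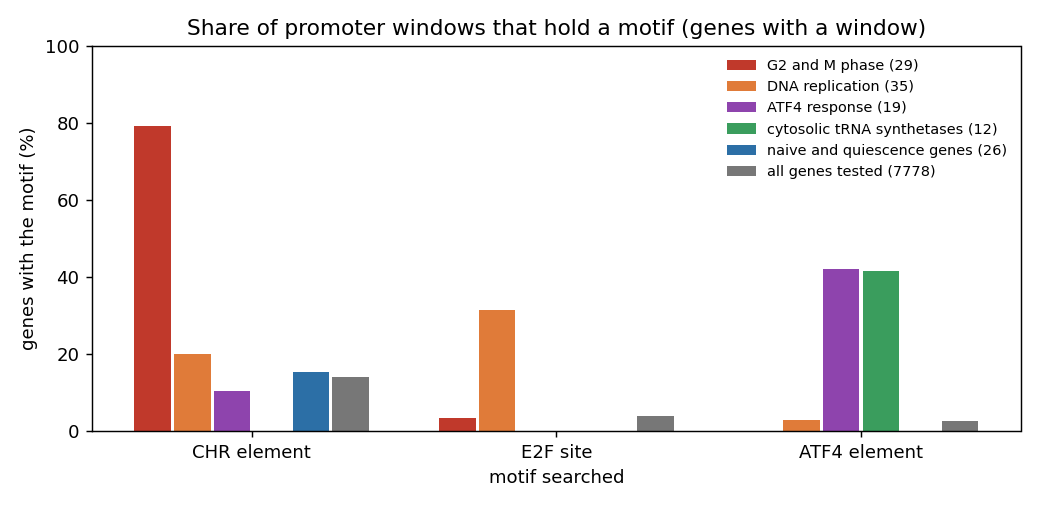
Share of genes (%) whose promoter window holds the CHR element, the E2F site or the ATF4 element on either strand, for 5 gene lists and for all tested genes, with the number of genes that have a window in the legend. The CHR element was in 79.3% of G2 and M phase windows against 14.2% of tested genes, the E2F site in 31.4% of replication windows against 3.96%, and the ATF4 element in 42.1% of ATF4 response windows against 2.7%.

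Mcm5, a subunit of the replicative helicase, measured 162, 188 and 169.8 CPM in stimulated cells, against 14.0, 16.2 and 13.4 CPM in resting cells (log2 fold change 3.56 ± 0.18, adjusted p = 6.50e-20). Cdc6, which loads that helicase, measured 61.9, 74.8 and 49.8 CPM in stimulated cells, against 1.83, 0 and 0 CPM in resting cells (log2 fold change 6.33 ± 0.59, adjusted p = 3.25e-09, count ratio 85.9 with counting interval 29.2 to 419). Pcna, the sliding clamp, measured 184, 164 and 179.6 CPM in stimulated cells, against 44.5, 27.7 and 20.5 CPM in resting cells (log2 fold change 2.48 ± 0.18, adjusted p = 6.58e-15). Mki67, the proliferation antigen, measured 207, 216 and 257 CPM in stimulated cells, against 2.44, 2.70 and 1.78 CPM in resting cells (log2 fold change 6.55 ± 0.62, adjusted p = 3.55e-08), and Cdk1, the mitotic kinase, rose (log2 fold change 6.37 ± 0.44, count ratio 90.4 with counting interval 30.7 to 441). Ccnb1, its cyclin B1 partner, measured 34.3, 28.8 and 33.7 CPM in stimulated cells, against 0, 0 and 0 CPM in resting cells, at least 45.5-fold higher (adjusted p = 9.63e-15). Aurkb, the Aurora B kinase, measured 36.8, 37.6 and 37.2 CPM in stimulated cells, against 0.610, 1.35 and 0 CPM in resting cells (log2 fold change 5.60 ± 0.54, adjusted p = 4.64e-10, count ratio 52.7 with counting interval 17.8 to 258). The stimulated libraries agreed closely for these genes, and the resting ones held from none to a few counts of Cdc6, Ccnb1 and Aurkb. Hist1h3b, an H3 gene, measured 261, 213 and 213 CPM in stimulated cells, against 0, 0 and 0 CPM in resting cells, at least 315-fold higher (adjusted p = 2.16e-08). Smc4 was the only tested gene of the G2 and M list to fall, at 162, 167 and 163 CPM in stimulated cells, against 359, 343 and 300.4 CPM in resting cells (log2 fold change -1.03 ± 0.14, adjusted p = 5.16e-08), while Smc2, the other SMC subunit of condensin, rose (log2 fold change 2.64 ± 0.19).

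Most regulators of the G1 phase rose, with 16 higher and 2 lower of 20 tested (median log2 fold change 1.75). Ccnd2, cyclin D2, measured 701, 891 and 649 CPM in stimulated cells, against 254, 207 and 241 CPM in resting cells (log2 fold change 1.67 ± 0.17, adjusted p = 2.63e-11) and Ccne1, cyclin E1, measured 36.8, 31.9 and 38.4 CPM in stimulated cells, against 14.0, 18.2 and 6.24 CPM in resting cells (log2 fold change 1.42 ± 0.24, adjusted p = 3.51e-06). Cdkn1b, the inhibitor p27, measured 15.1, 23.0 and 18.0 CPM in stimulated cells, against 196, 182 and 127 CPM in resting cells (log2 fold change -3.16 ± 0.22, adjusted p = 8.13e-14). The other gene to fall was Rbl2, the retinoblastoma relative p130 of quiescent cells (log2 fold change -1.77 ± 0.23). Of 28 nucleotide synthesis genes tested, 24 rose and 1 fell (median log2 fold change 1.99). Rrm2, the S phase subunit of ribonucleotide reductase, measured 124, 118 and 107 CPM in stimulated cells, against 0, 0.676 and 2.67 CPM in resting cells (log2 fold change 6.84 ± 0.36, adjusted p = 5.54e-17), and its stress-induced counterpart Rrm2b was the one to fall (log2 fold change -1.83 ± 0.33). Cad, which starts pyrimidine synthesis and whose enzyme is a target of mTORC1 signalling, measured 169.9, 186 and 200.3 CPM in stimulated cells, against 45.1, 46.6 and 49.0 CPM in resting cells (log2 fold change 1.99 ± 0.15, adjusted p = 7.21e-15).

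The machinery of protein synthesis rose broadly. Myc, which drives growth after activation, measured 406, 418 and 428 CPM in stimulated cells, against 48.8, 63.5 and 94.5 CPM in resting cells (log2 fold change 2.61 ± 0.29, adjusted p = 1.92e-07), while its antagonists Mxd4 and Mxi1 fell (log2 fold changes -2.04 ± 0.35 and -1.67 ± 0.37). Max, the partner of Myc, rose (log2 fold change 0.71 ± 0.17), and Mxd1 rose (log2 fold change 1.46 ± 0.37). The MYC and MAX network had no common direction, with 4 higher and 4 lower of 10 tested (median log2 fold change -0.25). Of 47 nucleolar genes of ribosome biogenesis tested, 43 rose and 0 fell (median log2 fold change 1.30). Ncl, nucleolin, measured 814, 869.8 and 1007 CPM in stimulated cells, against 226, 226 and 255 CPM in resting cells (log2 fold change 1.93 ± 0.18, adjusted p = 3.39e-12), and Nop56, a core protein of box C/D ribonucleoproteins, measured 171, 171 and 167 CPM in stimulated cells, against 59.2, 50.003 and 57.0 CPM in resting cells (log2 fold change 1.62 ± 0.14, adjusted p = 4.23e-13). No library of one group overlapped the other for either. Of 22 genes of RNA polymerases I and III, 8 rose and 3 fell (median log2 fold change 0.41). The 3 that fell included Maf1, a repressor of polymerase III that mTORC1 inactivates (log2 fold change -1.97 ± 0.19).

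Of 37 translation factors tested, 33 rose and 1 fell (median log2 fold change 1.11). Eif5a, which acts in elongation, measured 486, 544 and 556 CPM in stimulated cells, against 67.1, 71.6 and 83.8 CPM in resting cells (log2 fold change 2.84 ± 0.21, adjusted p = 1.59e-12), and Eif4e, the cap-binding factor, measured 51.1, 50.2 and 57.6 CPM in stimulated cells, against 25.0, 20.3 and 18.7 CPM in resting cells (log2 fold change 1.30 ± 0.19, adjusted p = 1.37e-07). The one to fall was Pdcd4, an inhibitor of the helicase Eif4a1 (log2 fold change -1.10 ± 0.15), while Eif4a1 rose (log2 fold change 1.51 ± 0.15). Of 81 cytosolic ribosomal protein genes tested, 51 rose and 1 fell (median log2 fold change 0.63). Rps12 measured 871, 1009.9 and 1178 CPM in stimulated cells, against 279, 339.9 and 274 CPM in resting cells (log2 fold change 1.78 ± 0.16, adjusted p = 2.93e-12). Rps27 fell (log2 fold change -1.02 ± 0.17) and its paralog Rps27l rose (log2 fold change 2.13 ± 0.28). Rpl7a, whose introns hold small nucleolar RNAs, measured 4731, 2244 and 1657 CPM in stimulated cells, against 3118, 2570.4 and 11990.0 CPM in resting cells and was not called, with the highest value in the resting library 3 that is rich in such RNAs. Ribosomal protein genes have many processed copies, so their values are uncertain where reads were split among them.

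More small nucleolar and Cajal body RNAs fell than rose, with 1 higher and 23 lower of 57 tested (median log2 fold change -1.46). This rested on single libraries: without resting library 3, 5 of them fell, without stimulated library 2, 7, and without stimulated library 3, 6, while without both libraries numbered 1 the count was 35. Their host transcripts, by contrast, rose in 10 of 13 tested and fell in 1 (median log2 fold change 1.32). Gas5, a host with a terminal oligopyrimidine start, measured 662, 565 and 523 CPM in stimulated cells, against 222, 246 and 182 CPM in resting cells (log2 fold change 1.43 ± 0.21, adjusted p = 2.12e-06), and Snhg1 measured 222, 237 and 165 CPM in stimulated cells, against 68.9, 59.5 and 46.3 CPM in resting cells (log2 fold change 1.82 ± 0.31, adjusted p = 4.51e-05).

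More genes of mTORC1 and mTORC2 and of their regulators fell than rose. Of 28 subunits and regulators tested, 2 rose and 11 fell (median log2 fold change -0.18), and with Rn45s kept in the totals the median was 0.12, with 4 lower. Mtor, the kinase, measured 40.2, 42.3 and 48.6 CPM in stimulated cells, against 28.1, 34.5 and 29.4 CPM in resting cells (log2 fold change 0.52 ± 0.16, adjusted p = 0.00654), and Akt1, a kinase linked to both complexes, rose (log2 fold change 0.63 ± 0.15). Mtor lost the call in a fit of the groups compared alone (adjusted p = 0.059). Rictor, the defining subunit of mTORC2, measured 65.3, 65.9 and 57.6 CPM in stimulated cells, against 129, 141 and 161 CPM in resting cells (log2 fold change -1.19 ± 0.15, adjusted p = 1.30e-08). Sesn1, a sestrin, which restrains mTORC1, fell (log2 fold change -2.58 ± 0.32).

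Amino acid transport and use rose in part. Of 18 transporters tested, 12 rose and 1 fell (median log2 fold change 1.20). Slc7a5, the light chain of the leucine transporter, measured 103, 124 and 101 CPM in stimulated cells, against 14.0, 16.2 and 19.6 CPM in resting cells (log2 fold change 2.73 ± 0.30, adjusted p = 7.31e-08), and its heavy chain Slc3a2 measured 97.1, 88.3 and 94.5 CPM in stimulated cells, against 50.6, 60.1 and 40.1 CPM in resting cells (log2 fold change 0.88 ± 0.15, adjusted p = 4.25e-06). The glutamine transporter Slc1a5 measured 112, 111 and 125 CPM in stimulated cells, against 59.8, 62.8 and 53.5 CPM in resting cells (log2 fold change 0.98 ± 0.14, adjusted p = 2.27e-07). Slc38a9, the lysosomal arginine sensor, fell (log2 fold change -1.12 ± 0.33). All 20 cytosolic aminoacyl-tRNA synthetases tested rose (median log2 fold change 1.34), from Sars (log2 fold change 0.41 ± 0.14) to Mars (log2 fold change 2.24 ± 0.22). Without resting Raptor KO CD8+ library 1, Sars did not pass the test (adjusted p = 0.0785). It also lost the call with no filter on low counts (adjusted p = 0.0537) and in a fit of the groups compared alone (adjusted p = 0.117). Of 14 serine and one-carbon enzymes, 11 rose and 0 fell (median log2 fold change 1.69). Psat1, the second enzyme of serine synthesis, measured 96.3, 111 and 110.2 CPM in stimulated cells, against 4.88, 4.05 and 5.35 CPM in resting cells (log2 fold change 4.47 ± 0.23, adjusted p = 6.33e-20), and Phgdh, the first, measured 46.04, 41.8 and 29.8 CPM in stimulated cells, against 7.32, 6.76 and 15.2 CPM in resting cells (log2 fold change 2.04 ± 0.30, adjusted p = 1.57e-06). Psph, the last, measured 10.9, 11.0 and 8.23 CPM in stimulated cells, against 8.54, 11.5 and 6.24 CPM in resting cells and was not called (log2 fold change 0.13 ± 0.30, adjusted p = 0.761).

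ATF4 target genes rose in part. Of 20 tested, 9 rose and 1 fell (median log2 fold change 0.83). In a fit of the 2 groups alone, 3 of those tested rose. Atf4, the factor itself, measured 167, 169 and 143 CPM in stimulated cells, against 98.8, 124 and 89.1 CPM in resting cells (log2 fold change 0.61 ± 0.17, adjusted p = 0.00223). Atf3, another factor of the stress response, measured 41.9, 42.9 and 18.0 CPM in stimulated cells, against 0, 0 and 0 CPM in resting cells, at least 44.5-fold higher (adjusted p = 2.24e-10). Asns, asparagine synthetase, measured 5.02, 2.61 and 4.70 CPM in stimulated cells, against 0, 0 and 0 CPM in resting cells, at least 5.75-fold higher (adjusted p = 2.75e-04), and Chac1, which degrades glutathione, measured 2.51, 3.14 and 0.784 CPM in stimulated cells, against 0, 0 and 0 CPM in resting cells, at least 2.75-fold higher (adjusted p = 0.00228). Both enzymes were thus above 0 in all stimulated libraries but stayed at a few CPM. Ppp1r15a, which restores translation in that response, fell (log2 fold change -0.75 ± 0.31), with overlapping libraries, and Trib3 (log2 fold change -0.67 ± 0.65, adjusted p = 0.394) was not called. Without stimulated Raptor KO CD8+ library 2 or 3 or resting Raptor KO CD8+ library 2 or 3, Ppp1r15a did not pass the test (adjusted p = 0.0983 to 0.197). It also lost the call with DESeq2 (adjusted p = 0.0506).

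The promoter windows of Asns (chr6:7693160-7693459, minus strand) and Chac1 (chr2:119350992-119351291, plus strand) are shown because both hold the ATF4 element, searched as TGATGNAA on both strands, in capitals.
Asns: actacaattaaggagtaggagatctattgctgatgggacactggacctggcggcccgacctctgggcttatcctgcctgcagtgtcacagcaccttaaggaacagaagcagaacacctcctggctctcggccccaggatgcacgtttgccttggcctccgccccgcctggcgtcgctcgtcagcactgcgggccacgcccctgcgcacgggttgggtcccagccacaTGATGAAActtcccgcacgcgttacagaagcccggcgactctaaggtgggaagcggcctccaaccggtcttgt
Chac1: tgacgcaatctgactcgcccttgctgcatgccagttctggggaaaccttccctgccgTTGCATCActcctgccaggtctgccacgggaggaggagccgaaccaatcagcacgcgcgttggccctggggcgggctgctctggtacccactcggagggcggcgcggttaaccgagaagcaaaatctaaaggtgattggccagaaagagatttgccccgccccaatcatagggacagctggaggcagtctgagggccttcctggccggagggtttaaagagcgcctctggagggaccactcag
The match lay at position -23 in Asns, on the strand of the gene, and at -193 in Chac1, on the other. Of the ATF4 list, 19 had a window and 8 (42.1%) held the element, as did 5 of 12 synthetases (41.7%), against 2.7% of the tested genes and 4.51% of all in the promoter table. The list was drawn up from known ATF4 targets, so its share of the element is not independent of how it was made. Among all genes that rose 2.47% held it, and among those that fell 3.03%.

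All glycolysis genes that changed rose. Of 22 tested, 17 rose and 0 fell (median log2 fold change 1.42). Hk2, the inducible hexokinase, measured 106, 151 and 114 CPM in stimulated cells, against 1.83, 3.38 and 2.67 CPM in resting cells (log2 fold change 5.55 ± 0.30, adjusted p = 9.23e-18). Ldha, lactate dehydrogenase A, measured 466, 512 and 430.5 CPM in stimulated cells, against 75.04, 73.7 and 56.2 CPM in resting cells (log2 fold change 2.78 ± 0.15, adjusted p = 4.94e-19), and Pkm, pyruvate kinase, measured 292, 256 and 238 CPM in stimulated cells, against 73.2, 62.2 and 73.1 CPM in resting cells (log2 fold change 1.91 ± 0.15, adjusted p = 3.03e-14). Slc2a1, the main inducible glucose transporter, rose (log2 fold change 0.75 ± 0.21). Of 9 genes of the pentose phosphate pathway, 5 rose and 1 fell (median log2 fold change 0.88): G6pdx, Pgd, Tkt, Rpia and Tigar rose by log2 fold changes of 0.88, 1.58, 1.91, 1.12 and 1.24, and H6pd, the enzyme of the endoplasmic reticulum, fell (log2 fold change -0.98 ± 0.27). Of 12 hypoxia response genes tested, 5 rose and 2 fell.

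Most genes of cholesterol synthesis rose, and exporters fell. Of 27 tested, 18 rose and 2 fell (median log2 fold change 1.30). Sqle, squalene epoxidase, measured 57.8, 58.5 and 38.8 CPM in stimulated cells, against 4.88, 4.05 and 5.35 CPM in resting cells (log2 fold change 3.41 ± 0.32, adjusted p = 3.41e-11). The 2 that fell were the cholesterol exporters Abca1 and Abcg1 (log2 fold changes -3.997 ± 0.85, count ratio 0.0555 with counting interval 0.00640 to 0.221 and -2.97 ± 0.38). Of 15 fatty acid genes, 9 rose and 3 fell (median log2 fold change 1.45). Scd2, a desaturase, measured 162, 196 and 88.2 CPM in stimulated cells, against 6.71, 6.76 and 14.3 CPM in resting cells (log2 fold change 4.04 ± 0.38, adjusted p = 2.21e-08), and Fasn, the synthase, measured 351, 336 and 295 CPM in stimulated cells, against 70.8, 62.8 and 108 CPM in resting cells (log2 fold change 2.03 ± 0.23, adjusted p = 2.59e-08). Acss2, an acetyl-CoA synthetase, and Elovl6, an elongase, fell (log2 fold changes -2.30 ± 0.40 and -1.37 ± 0.33).

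Mitochondrial genes rose in most groups. Of 74 nuclear-encoded subunits of the respiratory chain, 52 rose and 0 fell (median log2 fold change 1.01), with Ndufb6 and Cox7a2 among them (log2 fold changes 2.599 ± 0.45 and 2.12 ± 0.24). Of 8 messages of the mitochondrial genome tested, 6 rose and 0 fell (median log2 fold change 1.18). mt-Nd5 measured 2737, 3070.5 and 2719 CPM in stimulated cells, against 1303, 1357 and 1235 CPM in resting cells (log2 fold change 1.13 ± 0.26, adjusted p = 4.06e-04) and mt-Cytb measured 1758, 2340.3 and 2000.2 CPM in stimulated cells, against 853, 993 and 986 CPM in resting cells (log2 fold change 1.11 ± 0.27, adjusted p = 9.69e-04), while mt-Co1 (log2 fold change 0.55 ± 0.26, adjusted p = 0.0662) and mt-Nd4 (log2 fold change 0.78 ± 0.39, adjusted p = 0.0955) were not called. mt-Nd1, mt-Nd2, mt-Nd3 and mt-Nd6 rose by log2 fold changes of 1.25, 1.26, 1.40 and 1.23. Of 28 enzymes of the TCA cycle, pyruvate and glutamine, 18 rose and 1 fell (median log2 fold change 0.78). Idh3a and citrate synthase, Cs, rose (log2 fold changes 1.86 ± 0.25 and 1.20 ± 0.13), and cytosolic Idh1 fell (log2 fold change -1.93 ± 0.63). Without resting Raptor KO CD8+ library 1, Idh1 did not pass the test (adjusted p = 0.0729). It also lost the call without both Raptor KO CD8+ libraries numbered 1 (adjusted p = 0.0808). Of 77 mitochondrial ribosomal proteins, 37 rose and 1, Mrpl58, fell (log2 fold change -1.46 ± 0.29) (median log2 fold change 0.73).

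**Figure D3:**
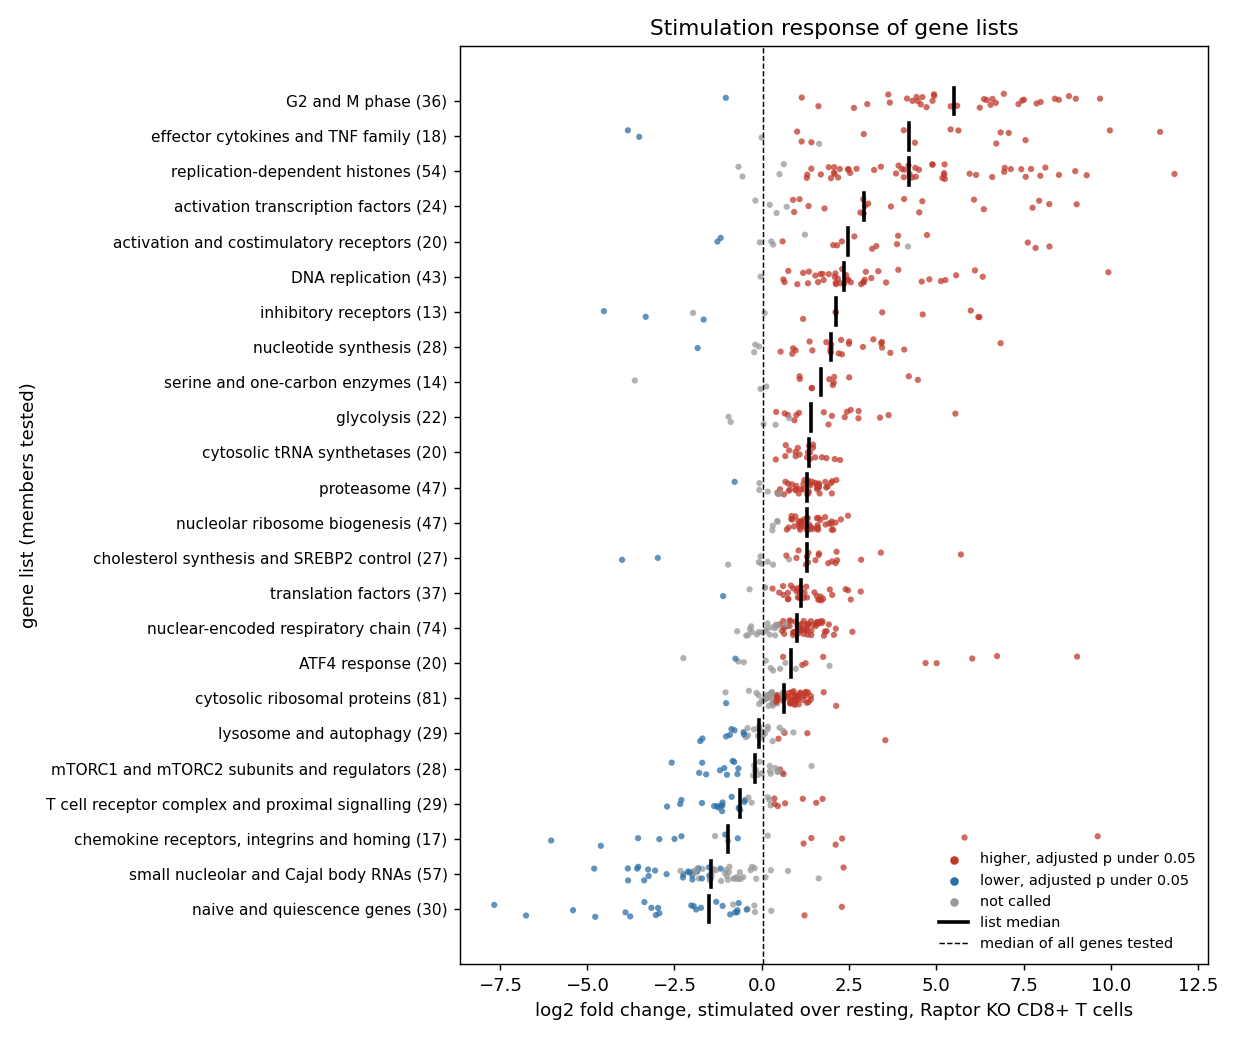
Log2 fold change, stimulated over resting, of each tested member (points) of 24 gene lists in Raptor KO CD8+ cells, coloured by call, with the list median as a black bar and the median of all genes tested as a dashed line. Medians run from 5.51 for the G2 and M phase genes to -1.52 for the naive and quiescence genes, and the lists of ribosome, proteasome, translation and respiratory chain genes sit between 0.63 and 1.31.

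Most proteasome and protein folding genes rose, and lysosome genes moved both ways. Of 47 proteasome genes tested, 41 rose and 1 fell (median log2 fold change 1.31). Psmd8, a regulatory subunit, measured 77.0, 72.7 and 69.0 CPM in stimulated cells, against 19.5, 14.2 and 15.2 CPM in resting cells (log2 fold change 2.14 ± 0.17, adjusted p = 5.95e-14), and the one to fall was Psmb10, a catalytic subunit of the immunoproteasome (log2 fold change -0.77 ± 0.25). Without resting Raptor KO CD8+ library 1, Psmb10 did not pass the test (adjusted p = 0.0824). It also lost the call without both Raptor KO CD8+ libraries numbered 1 (adjusted p = 0.0857). Of 23 genes of endoplasmic reticulum folding, 16 rose and 2 fell (median log2 fold change 1.30). Hspa5, the chaperone BiP, measured 243, 225 and 251 CPM in stimulated cells, against 76.9, 60.1 and 64.2 CPM in resting cells (log2 fold change 1.83 ± 0.15, adjusted p = 1.71e-13), and Herpud1, which acts in degradation, fell (log2 fold change -0.79 ± 0.18). Of 29 lysosome and autophagy genes, 4 rose and 8 fell (median log2 fold change -0.06), and 5 fell without both libraries numbered 1. The share that fell was near the 26% of all genes tested, of which 29.5% rose. Ctsd, cathepsin D, measured 23.4, 24.0 and 22.7 CPM in stimulated cells, against 92.7, 77.0 and 55.3 CPM in resting cells (log2 fold change -1.70 ± 0.18, adjusted p = 1.79e-10). Gabarapl1, an autophagosome protein, rose (log2 fold change 3.54 ± 0.53), and Atp6v1a, a subunit of the proton pump (log2 fold change 1.31 ± 0.20). With Rn45s kept in the totals the list had 2 higher and 2 lower and a median of 0.24.

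Survival genes changed in both directions. Of 21 tested, 9 rose and 3 fell (median log2 fold change 0.41). Bcl2l1, which encodes the protective protein BCL-XL, measured 175, 213 and 192 CPM in stimulated cells, against 11.6, 7.43 and 9.80 CPM in resting cells (log2 fold change 4.32 ± 0.19, adjusted p = 4.20e-21). Bcl2, its relative in resting T cells, measured 95.4, 92.0 and 83.9 CPM in stimulated cells, against 181, 184 and 369.9 CPM in resting cells (log2 fold change -1.43 ± 0.39, adjusted p = 0.00467), and Bcl2l11, the death-promoting protein BIM, measured 8.37, 8.36 and 23.1 CPM in stimulated cells, against 54.9, 43.2 and 53.5 CPM in resting cells (log2 fold change -1.80 ± 0.29, adjusted p = 5.21e-06). Without resting Raptor KO CD8+ library 3, Bcl2 did not pass the test (adjusted p = 0.0527). Of 21 p53 targets tested, 8 rose and 5 fell (median log2 fold change 0.42), and 5 rose without both libraries numbered 1. Cdkn1a, the inhibitor p21, measured 27.6, 27.7 and 7.06 CPM in stimulated cells, against 0.610, 0.676 and 1.78 CPM in resting cells (log2 fold change 4.27 ± 0.87, adjusted p = 3.55e-04). Trp53inp1 fell (log2 fold change -3.48 ± 0.19).

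Tfrc, the transferrin receptor for iron uptake, measured 457, 475 and 426 CPM in stimulated cells, against 18.9, 24.3 and 37.4 CPM in resting cells (log2 fold change 4.09 ± 0.27, adjusted p = 2.95e-12). In its list of iron, glutathione and NRF2 genes, 8 rose and 4 fell of 21 tested, and Nfe2l2, which encodes NRF2, fell (log2 fold change -1.65 ± 0.23). Of 16 interferon-stimulated genes tested, 5 rose and 6 fell, Irf7 among those that fell (log2 fold change -2.61 ± 0.57), and 9 others were too low to test. Over all genes tested, 29.5% rose and 26% fell. Of 14 class I presentation genes, 5 rose and 6 fell, H2-K1 among those that fell (log2 fold change -0.69 ± 0.12). Among 20 DNA methylation and Polycomb genes, 10 rose and 8 fell. Ezh2, the Polycomb methyltransferase of dividing cells, measured 105, 91.0 and 101 CPM in stimulated cells, against 10.4, 7.43 and 10.7 CPM in resting cells (log2 fold change 3.38 ± 0.21, adjusted p = 3.12e-17), while its counterpart Ezh1 fell (log2 fold change -1.61 ± 0.21). The maintenance methyltransferase Dnmt1 rose (log2 fold change 1.54 ± 0.13), and Tet1, which oxidises methylcytosine, fell (log2 fold change -5.19 ± 0.80, count ratio 0.0197 with counting interval 0.000487 to 0.117).

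More long non-coding RNAs fell than rose. Of 147 long intergenic RNAs tested, 18 rose and 67 fell, with a median of -0.83, and of 125 antisense RNAs 13 rose and 66 fell, with a median of -1.30. Small nuclear RNAs were nearer balance, with 6 higher and 8 lower of 47 tested and a median of -0.24, as were the 23 genes of miRNAs, with 4 higher and 5 lower. Most members of both classes were not called, while 55.6% of all genes tested changed. Small nuclear RNAs held 25.4% of the non-Rn45s counts in resting library 3, against 13.7% and 12.6% in resting libraries 1 and 2. The strand setting of the counting is not given in the sources used here, so reads of an antisense RNA and of its partner cannot be told apart. Malat1, an abundant nuclear RNA, measured 852, 702 and 1222 CPM in stimulated cells, against 3854, 3382 and 3477 CPM in resting cells (log2 fold change -1.95 ± 0.21, adjusted p = 2.92e-10), and Neat1, its neighbour and the scaffold of paraspeckles, measured 73.7, 64.3 and 59.6 CPM in stimulated cells, against 365, 398 and 475 CPM in resting cells (log2 fold change -2.65 ± 0.19, adjusted p = 9.16e-14).

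The genes of 3 miRNAs with known roles in T cells are shown with 1 mature sequence each from RefSeq (GRCm38.p6), the seed (bases 2 to 8) in capitals. The other mature strand, miR-150-5p, was not among the sequences available, so only miR-150-3p is shown for Mir150. The counts are of the genes and not of the mature RNAs, and the genes were picked after their values were seen.
mmu-miR-155-5p: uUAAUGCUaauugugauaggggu
mmu-miR-15b-5p: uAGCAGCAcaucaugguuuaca
mmu-miR-150-3p: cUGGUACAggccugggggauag
The 3 seeds differ from each other. Mir155hg, the host of miR-155, which promotes effector responses, measured 103, 93.6 and 53.7 CPM in stimulated cells, against 3.66, 1.35 and 4.46 CPM in resting cells (log2 fold change 4.71 ± 0.48, adjusted p = 1.95e-08). Mir15b (chromosome 3, 69009772 to 69009835), of a family that restrains cell cycle genes, measured 4.19, 4.18 and 3.92 CPM in stimulated cells, against 32.3, 38.5 and 30.3 CPM in resting cells (log2 fold change -3.04 ± 0.34, adjusted p = 5.31e-10). It lies within the span of Smc4 on the same strand, which also fell, as described above. Mir150, a miRNA gene of resting lymphocytes, measured 0.837, 0.523 and 0.392 CPM in stimulated cells, against 6.71, 8.11 and 5.35 CPM in resting cells (log2 fold change -3.52 ± 0.80, adjusted p = 3.05e-04, count ratio 0.0775 with counting interval 0.0151 to 0.250), with few counts in each stimulated library.

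The largest increases by rank were again in mitosis, cytokine and histone genes. After Hist1h3b and Ifng came Ncapg2, a condensin subunit, which measured 76.2, 87.3 and 97.2 CPM in stimulated cells, against 0, 0 and 0 CPM in resting cells, at least 126-fold higher (adjusted p = 6.95e-15). Kntc1, a kinetochore protein, was at least 108-fold higher, Espl1, the separase, at least 92.2-fold, Mcm10 at least 84.9-fold, Bub1b at least 73.2-fold and Hist1h2af at least 56.7-fold. Outside the cell cycle, Bcat1, the cytosolic enzyme of branched-chain amino acid breakdown, measured 72.8, 59.6 and 80.4 CPM in stimulated cells, against 0, 0 and 0 CPM in resting cells, at least 101-fold higher (adjusted p = 5.68e-17). Sema4c, a semaphorin, was at least 59.0-fold higher. None of these had a count in a resting library.

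The largest decreases were led by interferon-inducible and surface genes of resting cells. Ifi208 measured 0, 0 and 0 CPM in stimulated cells, against 24.4, 38.5 and 28.5 CPM in resting cells, at least 57.4-fold lower (adjusted p = 6.19e-13), and Ifi213, of the same gene family, measured 0, 0 and 0.392 CPM in stimulated cells, against 43.9, 32.4 and 39.2 CPM in resting cells (log2 fold change -7.33 ± 0.52, adjusted p = 1.78e-15, count ratio 0.00457 with counting interval 0.000115 to 0.0258). Members of that family are close copies, so reads shared among them make single values uncertain. Tnfrsf26, a decoy death receptor, measured 1.67, 0.523 and 1.18 CPM in stimulated cells, against 79.9, 87.2 and 106 CPM in resting cells (log2 fold change -6.33 ± 0.34, adjusted p = 1.39e-18). Ldlrad4, a negative regulator of TGF-beta signalling, was at least 27.1-fold lower, Art2b, a surface ADP-ribosyltransferase, fell (log2 fold change -5.94 ± 0.53, count ratio 0.0138 with counting interval 0.00164 to 0.0509), Kcna2, a potassium channel, fell (log2 fold change -5.64 ± 0.53), and Cd7 fell (log2 fold change -5.63 ± 0.65, count ratio 0.0168 with counting interval 0.00201 to 0.0627). Each of these had at most 1.67 CPM in a stimulated library.

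Most of this response was shared with cells that have Raptor. In WT CD8+ cells, tested in the same fit, 3363 genes rose (32%) and 3229 fell (30.8%). The 2 responses share no library. Of the 3099 genes that rose in Raptor KO cells, 2625 also rose in WT (84.7% of the Raptor KO genes and 78.1% of the WT genes), and of the 2733 that fell, 2297 also fell in WT (84.0% and 71.1%). Opposite calls were rare: 13 genes rose in Raptor KO and fell in WT cells, and 8 fell in Raptor KO and rose in WT cells. The test of the difference itself, the stimulation effect in Raptor KO minus that in WT cells, was passed by 178 genes with a positive difference (1.7% of those tested) and by 125 with a negative one (1.19%), or 2.89% in either direction. Without both Raptor KO libraries numbered 1, which differ from the WT libraries in sex, 135 differences were positive and 77 negative.

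This test depended on the scaling. With Rn45s kept in the totals, the median difference of all genes shifted by -0.47, and 6 differences were positive and 33 negative, so that 15.4% of the calls were positive, against 58.7% with it left out. With median-ratio size factors it was 50.5%. In the plot of both responses, the genes with a called difference lie on either side of the diagonal.

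**Figure D4:**
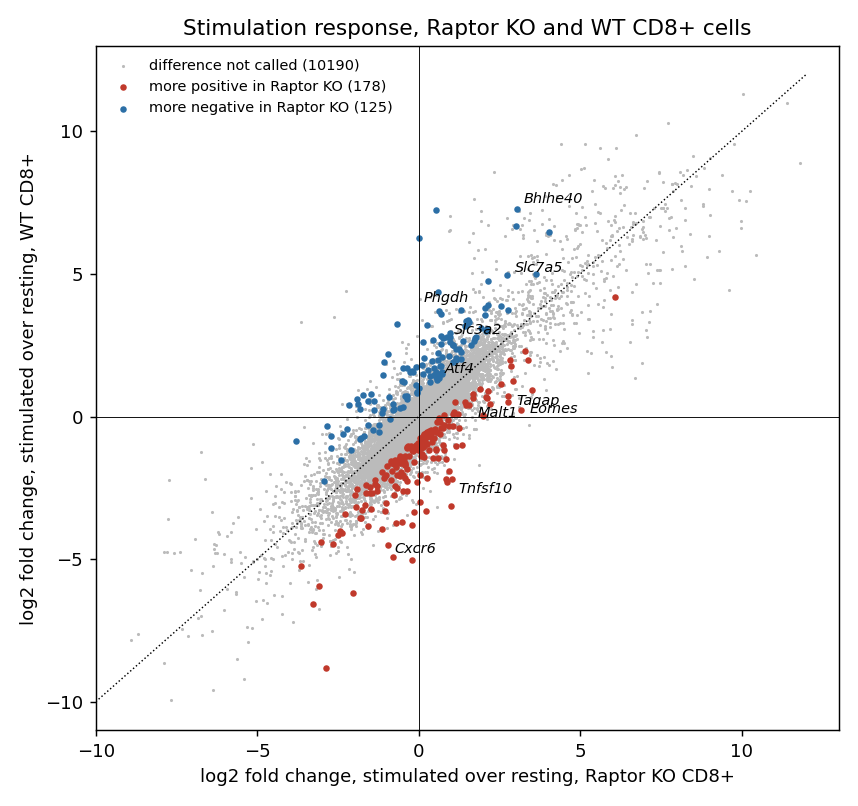
Log2 fold change, stimulated over resting, in Raptor KO (horizontal) and WT (vertical) CD8+ cells for each gene tested, with the 178 genes of a positive difference in red, the 125 of a negative one in blue and the other 10190 in grey. The dotted line marks equal responses, and the median over all genes was 0.03 in Raptor KO cells.

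Several lists of amino acid, tRNA and glycolysis genes had many negative differences, their members rising less in Raptor KO cells. Over all genes tested, 1.19% had a negative difference. Of the 20 tRNA synthetases, 11 had a negative difference and 0 a positive one, with list medians for stimulation of 1.34 in Raptor KO and 2.26 in WT cells, and 4 kept the call with Rn45s in the totals. Aars had a stimulation effect of 1.53 ± 0.19 in cells without Raptor and 3.40 ± 0.18 in WT cells, a difference of -1.87 ± 0.27 (adjusted p = 1.89e-05). Of 22 glycolysis genes, 10 had a negative difference, with medians of 1.42 and 2.54, and 2 did with Rn45s kept in the totals. Pkm changed by 1.91 ± 0.15 in Raptor KO cells and by 3.11 ± 0.15 in WT cells, a difference of -1.20 ± 0.21 (adjusted p = 2.94e-04). Of 20 ATF4 genes, 6 had a negative difference, with medians of 0.83 and 3.46, and 3 did with Rn45s kept in the totals. Atf4 itself changed by 0.61 ± 0.17 in Raptor KO cells and by 2.00 ± 0.17 in WT cells (-1.38 ± 0.24, adjusted p = 2.97e-04), and Psph, which was not called in Raptor KO cells, by 2.63 ± 0.23 in WT cells (-2.49 ± 0.40, adjusted p = 8.07e-05). Slc3a2 averaged 93.3 ± 4.496 CPM in stimulated and 50.3 ± 10.0 in resting Raptor KO cells, and 183 ± 26.7 and 26.1 ± 2.63 in stimulated and resting WT cells (SD, n = 3 each; difference -1.92 ± 0.22, adjusted p = 3.93e-07). Slc7a5 differed by -2.24 ± 0.42 (adjusted p = 0.00377) and Phgdh by -1.77 ± 0.45 (adjusted p = 0.0246). Without resting Raptor KO CD8+ library 3 or resting WT library 1, Phgdh did not pass the test (adjusted p = 0.0736 to 0.125). Bhlhe40, an activation factor, rose to like levels in both genotypes, 228 ± 43.4 CPM without Raptor and 194 ± 50.7 CPM in WT (SD, n = 3 each), and its difference of -4.24 ± 0.79 (adjusted p = 0.00436) came with resting levels of 27.1 ± 11.1 and 1.12 ± 0.617 CPM. Bhlhe40 lost the call with limma-voom (adjusted p = 0.114).

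Positive differences were largely decreases that were smaller in Raptor KO cells: 62 of the 178 genes fell in both genotypes and 65 fell in WT cells without a call in Raptor KO cells, while 19 rose in both, 20 rose in Raptor KO cells without a call in WT cells and 12 rose in Raptor KO and fell in WT cells. Tnfsf10, the death ligand TRAIL, measured 43.5, 31.4 and 45.5 CPM in stimulated and 23.8, 14.2 and 21.4 CPM in resting Raptor KO cells (log2 fold change 1.02 ± 0.25, adjusted p = 6.08e-04) and changed by -2.18 ± 0.33 in WT cells, a difference of 3.20 ± 0.41 (adjusted p = 2.90e-06). Irf1 and Cflar, an interferon-related factor and an inhibitor of death receptors, also rose in Raptor KO and fell in WT cells, with differences of 1.30 ± 0.25 (adjusted p = 0.00129) and 1.30 ± 0.21 (adjusted p = 7.93e-05). Eomes changed by 0.22 ± 0.35 in WT cells, a difference of 2.97 ± 0.56 (adjusted p = 0.00143). Its levels were 37.1 ± 15.3 CPM in stimulated and 4.01 ± 1.24 CPM in resting Raptor KO cells. In WT cells they were 16.8 ± 4.14 CPM stimulated and 14.5 ± 3.30 CPM resting (SD, n = 3 each). The difference in Eomes thus came with a lower resting level in Raptor KO cells as well as a higher stimulated one. Tagap, a GTPase-activating protein of activated T cells, measured 167, 173 and 146 CPM in stimulated and 22.0, 25.7 and 23.2 CPM in resting Raptor KO cells and changed by 0.51 ± 0.18 in WT cells, a difference of 2.26 ± 0.26 (adjusted p = 3.93e-07). Ctsw and Zbtb20 fell by less than in WT cells, with differences of 1.69 ± 0.33 (adjusted p = 0.00176) and 1.81 ± 0.35 (adjusted p = 0.00129), and Malt1, Serpinb9 and Malat1 differed by 1.14 ± 0.24 (adjusted p = 0.00286), 1.86 ± 0.38 (adjusted p = 0.00259) and 1.23 ± 0.29 (adjusted p = 0.0109). Serpinb9 lost the call with limma-voom (adjusted p = 0.08). Without stimulated Raptor KO CD8+ library 3, Malat1 did not pass the test (adjusted p = 0.0753). It also lost the call in a fit of the groups compared alone (adjusted p = 0.0658). Of the 18 genes whose difference is given, 12 lost the call with Rn45s kept in the totals: Pkm, Atf4, Phgdh, Irf1, Cflar, Eomes, Tagap, Ctsw, Zbtb20, Malt1, Serpinb9 and Malat1.

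**Figure D5:**
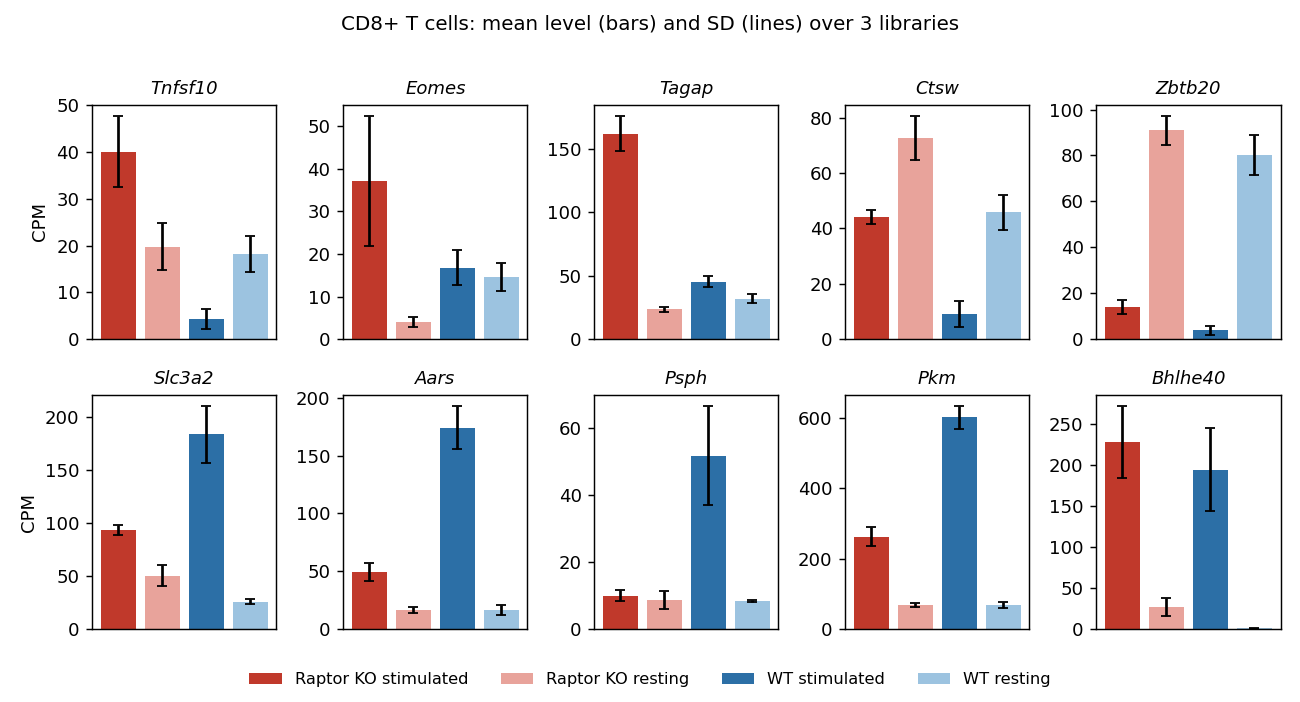
Mean level (CPM, bars) and SD (lines) over 3 libraries of 10 genes whose stimulation effect differed between Raptor KO and WT CD8+ cells, from left to right stimulated Raptor KO, resting Raptor KO, stimulated WT and resting WT. Tnfsf10 was higher in stimulated than in resting Raptor KO cells and lower in stimulated than in resting WT cells, and Slc3a2, Aars, Psph and Pkm reached their highest level in stimulated WT cells.

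No difference was called for the lists of DNA replication, histone, nucleotide synthesis, nucleolar or respiratory chain genes: of 43 replication genes 0 had a called difference, with medians of 2.36 in Raptor KO and 2.58 in WT cells, and of 36 G2 and M phase genes 0, with medians of 5.51 and 6.27. A difference that misses the threshold does not show equal responses. Of 81 ribosomal protein genes, 51 rose in Raptor KO and 38 in WT cells, and 2 had a positive difference.

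The response of Raptor KO CD8+ cells was set against that of Raptor KO CD4+ cells to ask what the lineage adds without Raptor. The stimulation effect differed in 79 genes with a positive difference, CD8+ minus CD4+ (0.753%), and in 56 with a negative one (0.534%), or 1.29% in either direction. With Rn45s kept in the totals the median of all genes shifted by 0.42 and the counts were 44 and 6. Gzmb averaged 1332 ± 340.4 CPM in stimulated and 1.30 ± 1.34 in resting CD8+ cells, and 105 ± 30.1 and 4.08 ± 3.59 in stimulated and resting CD4+ cells (SD, n = 3 each), a difference of 5.33 ± 0.89 (adjusted p = 0.00328). Prf1, not called in CD8+ cells, differed by 3.44 ± 0.50 (adjusted p = 2.63e-05), its CD4+ levels being 2.16 ± 1.38 CPM stimulated and 18.3 ± 3.61 CPM resting. Il2ra differed by 3.17 ± 0.54 (adjusted p = 0.00345). It averaged 562 CPM in stimulated CD8+ and 643 CPM in stimulated CD4+ cells (n = 3 each). Its resting means were 2.5997 CPM in CD8+ and 29.2 CPM in CD4+ cells. The difference in Il2ra thus came with a lower resting level in CD8+ cells and not with a higher stimulated one. Cd83, a surface molecule of activated lymphocytes, differed by 4.97 ± 1.03 (adjusted p = 0.00566) and Ccr7 by 1.39 ± 0.23 (adjusted p = 2.17e-04). Without resting Raptor KO CD4+ library 2, Cd83 did not pass the test (adjusted p = 0.0851). Of the genes named in this comparison, Ccr7 lost the call with Rn45s kept in the totals, Gzmb in a fit of the groups compared alone and Il2ra with limma-voom. On the negative side, Tbx21 differed by -3.36 ± 0.59 (adjusted p = 9.00e-04), with levels of 45.9 ± 7.45 CPM in stimulated and 11.2 ± 4.21 CPM in resting CD8+ cells, and of 55.3 ± 6.69 and 1.28 ± 0.529 CPM in stimulated and resting CD4+ cells (SD, n = 3 each). Il6ra fell in CD8+ cells by more, with a difference of -2.68 ± 0.30 (adjusted p = 3.68e-07), and F2r and Rgs10, a thrombin receptor and a regulator of G protein signalling, differed by -3.20 ± 0.46 (adjusted p = 2.65e-05) and -3.004 ± 0.50 (adjusted p = 2.72e-04). List medians were 2.36 in CD8+ and 2.33 in CD4+ cells for DNA replication and 1.34 and 1.21 for the tRNA synthetases, and no member of either list had a called difference.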

How the data were processed

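Total RNA of sorted T cells was sequenced from 27 libraries, and the deposited table holds raw read counts per gene, made by the authors. The submitters' processing notes name STAR 2.6.0a and GRCm38. How reads were assigned to genes and strands is not stated in the sources used here. No depletion of ribosomal RNA is named in the labels' protocols. The Rn45s row was left out of totals and tests. Gene types and positions came from the GENCODE M21 annotation, which matched 26765 of 26802 genes. All 27 libraries were fitted together with edgeR 4.0.16 in R 4.3.3 (TMM scaling, filterByExpr with a minimum count of 10 and a minimum total of 15, robust quasi-likelihood F test, 1 mean per group), with contrasts for stimulation and for the difference of stimulation effects and Benjamini-Hochberg adjustment at 0.05 over 10493 genes. The SE is the log2 fold change divided by the square root of F. The fits were also run on simulated counts in which few genes changed. That run does not test the scaling for data in which 55.6% of the genes tested changed.

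The labels do not say whether replicates came from separate mice. Sex-linked genes show more than 1 mouse in each Raptor KO group; otherwise the spread behind the p-values may be technical. No 2 replicates agreed within sampling noise. The comparison, gene lists and tests were chosen with earlier results of these data known. Named genes are the targeted and lineage genes, the first 3 of each list, members against a list's direction and the genes of largest change, with a mean of at least 10 CPM in the higher group. Genes named outside that rule were chosen after their values were seen. The alternatives tried comprised median-ratio size factors, no filter, a stricter filter (over 5 CPM in 3 libraries), DESeq2 1.42.0, limma-voom 3.58.1, a fit of the groups compared alone, Rn45s kept in the totals, a minimum fold change of 1.5, the replicate number as a block and each library left out. A fit of protein-coding genes alone and one without both Raptor KO CD8+ libraries numbered 1 were chosen after seeing the data. Promoter windows and mature miRNAs are RefSeq sequences of GRCm38.p6.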

Additional observations from a re-analysis of the deposited data

Results flagged for a closer look

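The response to stimulation differed between Raptor KO and WT CD8+ cells, by the test of the difference itself, in 18 genes named above. The difference (log2 scale, Raptor KO minus WT) was negative for Aars (-1.87), Pkm (-1.20), Atf4 (-1.38), Psph (-2.49), Slc3a2 (-1.92), Slc7a5 (-2.24), Phgdh (-1.77) and Bhlhe40 (-4.24). It was positive for Tnfsf10 (3.20), Irf1 (1.30), Cflar (1.30), Eomes (2.97), Tagap (2.26), Ctsw (1.69), Zbtb20 (1.81), Malt1 (1.14), Serpinb9 (1.86) and Malat1 (1.23).

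The response differed between Raptor KO CD8+ and Raptor KO CD4+ cells, by the same kind of test, in 9 genes named above. The difference (log2 scale, CD8+ minus CD4+) was positive for Gzmb (5.33), Prf1 (3.44), Il2ra (3.17), Cd83 (4.97) and Ccr7 (1.39). It was negative for Tbx21 (-3.36), Il6ra (-2.68), F2r (-3.20) and Rgs10 (-3.004).

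The Rn45s row, which covers the 45S ribosomal RNA precursor and the mature RNAs within it, enters no comparison. It took a mean of 85.9% ± 1.22 of the counts in stimulated and 83.5% ± 0.589 in resting Raptor KO CD8+ libraries (SD, n = 3 each). The groups did not overlap, and an exact two-sided permutation test gave p = 0.1, the smallest that 3 against 3 libraries allow.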

How the results depend on the processing

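Both counts for stimulation in Raptor KO CD8+ cells, 3099 higher and 2733 lower, stayed within 1.5-fold except that 1232 genes fell with Rn45s kept in the totals and 1714 with a minimum fold change of 1.5. With each library left out they were 2879 to 3038 and 2407 to 2597. For Raptor KO minus WT (178 positive, 125 negative), the counts were 116 positive in a fit of the groups compared alone, 6 positive and 33 negative with Rn45s kept, 31 and 34 with the minimum fold change, and 77 negative without both libraries numbered 1; with each library left out they were 118 to 166 and 89 to 138, with the 118 without stimulated WT library 1. For CD8+ minus CD4+ (79 positive, 56 negative), they were 41 positive with limma-voom, 49 in a fit of the groups alone, 44 positive and 6 negative with Rn45s kept, 25 and 14 with the minimum fold change, and 34 negative without both libraries numbered 1. With each library left out they were 46 to 84 and 37 to 58; the positive count was 46 without stimulated CD4+ library 2, 47 without stimulated CD8+ library 2 and 52 without resting CD4+ library 2, and the negative count was 37 without stimulated CD8+ library 2. The cause of these shifts was not tested.

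The replicate number as a block gave 3128 higher and 2754 lower genes for stimulation, 220 and 161 for Raptor KO minus WT, and 98 and 80 for CD8+ minus CD4+; same-numbered WT and Raptor KO libraries share a code in their titles, whose meaning the labels do not give, and Raptor KO ones share their sex. The deviations of same-numbered Raptor KO CD8+ libraries correlated by 0.13, 0.13 and -0.02. Of the 204 genes whose change is given, 1 changed sign: Rpl7a, uncalled, at 0.064 without resting library 3, its values with each library left out running from -1.58. A median of 27 counts per gene and library limits the precision for low genes, so small changes of such genes may be missed.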
